A study of Mus musculus with 18 samples.

Results

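The genes described here sense nucleic acids or relay that signal, and they were followed through 3 mouse cancer cell lines given sildenafil: the RNA sensors Ddx58, Ifih1, Dhx58 and Tlr3, the double-stranded RNA kinase Eif2ak2, the Z-nucleic acid sensor Zbp1, the adaptor Mavs, the kinase Tbk1, the transcription factor Irf3 and the nuclease Trex1. The rule that names them uses no measured value. The 10 genes and all further lists were, however, chosen with earlier results of these data known. All 10 had a row among the 55450 genes of the deposited table. Treated libraries came from the lines 4T1 (labelled Breast Carcinoma), MC38 (labelled Colon Adenocarcinoma) and LLC (labelled Lewis Lung Carcinoma) after exposure to sildenafil citrate at 100 µM. Sildenafil inhibits PDE5, a phosphodiesterase that breaks down cGMP. The control libraries came from the same lines given the solvent DMSO. The exposure was 24 hours long for 4T1 and for MC38 but 48 hours for LLC, so line and duration cannot be told apart wherever LLC is compared with another line. All groups carry the genotype label W.T, 4T1 grew in RPMI 1640 and the others in DMEM, and each of the 6 groups had 3 polyA libraries. Whether replicate libraries stem from different dishes is not in the labels, and the p-values therefore speak of library-to-library spread, possibly a technical one.

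Cells watch for nucleic acids that are out of place. RIG-I (Ddx58) and MDA5 (Ifih1) bind viral or misplaced double-stranded RNA in the cytosol and signal through MAVS on mitochondria. LGP2 (Dhx58) modulates both. TLR3 reads double-stranded RNA in endosomes rather than in the cytosol. Both routes lead to the kinase TBK1, which phosphorylates IRF3, and IRF3 then turns on type I interferon and a first set of antiviral genes. The sensors are themselves interferon-induced genes, whereas MAVS, TBK1 and IRF3 are the wiring that is present beforehand.

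Library totals ran from 41070021 to 61600646 counts in 4T1, from 29438187 to 36417399 in MC38 and from 26348654 to 32129771 in LLC. LLC control replicate 3 stood apart from both its mates, with a Spearman correlation over genes of 0.9923 and 0.9925 against 0.9976 between the others, so results in LLC are also given without it where they change. 4T1 held all 5 epithelial markers checked (Epcam, Cdh1, Krt8, Krt18, Krt19) at 1 CPM or more, whereas Epcam was at 0 counts in MC38 and LLC, and only Krt8 reached 1 CPM there. The colon markers Cdx1 and Cdx2 were at 0 counts in MC38, and the lung markers Nkx2-1, Sftpc and Sftpb were at 0 counts in LLC. A further lung marker, Napsa, was read in LLC, at a mean of 7.88 CPM in sildenafil and 5.12 CPM in control libraries. Summed levels of 10 leukocyte markers were 37.4 to 38.4 CPM in 4T1 sildenafil libraries against 9.71 to 10.2 CPM in 4T1 control libraries, and nearly all of this was Cd68, a lysosomal protein of macrophages, at 37.5 CPM against 9.74 CPM. Ptprc, the gene of the pan-leukocyte protein CD45, averaged 0.102 CPM against 0.0758 CPM, and Cd3e, Ms4a1, Nkg7 and Adgre1 were at 0 counts in both. In MC38 the sum was 9.75 to 10.5 CPM against 5.92 to 6.39 CPM, and in LLC 4.65 to 5.62 CPM against 2.57 to 3.15 CPM. Most of the MC38 sum was Csf1r (4.74 CPM against 2.81 CPM) and Cd68 (4.67 CPM against 2.93 CPM). Most of the LLC sum was Lyz2 (3.33 CPM against 1.47 CPM) and Cd68 (1.64 CPM against 1.43 CPM). Of 6 fibroblast markers the sum was 51.4 to 59.6 CPM in 4T1 sildenafil libraries against 26.5 to 29.1 CPM in control libraries, nearly all of it the receptor gene Pdgfra, while Lum was at 0 counts in both groups. In LLC it was 144 to 156 CPM against 67.6 to 76.6 CPM, mostly Pdgfra with some Pdgfrb, and in MC38 598 to 606 CPM against 608 to 628 CPM. The non-coding RNA gene Gm26917 also moved with treatment in 4T1 and MC38. It averaged 252 CPM in 4T1 sildenafil and 156 CPM in 4T1 control cells, and 5680 CPM against 11700 CPM in MC38. In LLC its mean was 8910 CPM against 20000 CPM, but the libraries overlapped, at 5850 to 13800 CPM against 9660 to 29500 CPM. What part the markers have in the results was not tested, and for Gm26917 the covariate fits are quoted with the results.

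RefSeq promoters of GRCm38.p6 (250 bases before to 50 after the start) were at hand for 8 of the 10 genes, and the core of the interferon-stimulated response element, GAAA and another GAAA with 2 bases of any kind between them, was searched on both strands. It occurred in 3.44% of 32851 mouse promoters. Of the 8 genes, Ifih1, Ddx58 and Eif2ak2 held it, and Mavs, Tbk1, Irf3, Tlr3 and both Trex1 promoters did not. The Tlr3 window (chr8:45410331-45410630, minus strand) lies within the gene's own span, whose upstream end is 45411080. Bases before that end were not searched. The core lay 33 to 42 bases after the start of Ifih1, 3 to 12 bases after that of Ddx58 on the reverse strand (where it reads TTTC, 2 bases, TTTC), and 19 to 28 bases after that of Eif2ak2. The windows of these 3 genes follow because they carry the motif, which is in capitals, and are written 5′ to 3′ on the gene's own strand. Ifih1 is shown by 30 bases downstream of its start (chr2:62646206-62646235, minus strand), Ddx58 from 250 before to 30 after its start (chr4:40239796-40240075, minus strand) and Eif2ak2 over the same span (chr17:78882543-78882822, minus strand).
Ifih1: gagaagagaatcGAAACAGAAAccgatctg
Ddx58: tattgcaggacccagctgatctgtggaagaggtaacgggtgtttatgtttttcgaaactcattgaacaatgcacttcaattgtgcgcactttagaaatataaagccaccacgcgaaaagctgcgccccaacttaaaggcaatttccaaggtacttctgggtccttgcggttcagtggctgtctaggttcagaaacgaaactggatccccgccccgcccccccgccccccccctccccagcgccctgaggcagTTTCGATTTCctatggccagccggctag
Eif2ak2: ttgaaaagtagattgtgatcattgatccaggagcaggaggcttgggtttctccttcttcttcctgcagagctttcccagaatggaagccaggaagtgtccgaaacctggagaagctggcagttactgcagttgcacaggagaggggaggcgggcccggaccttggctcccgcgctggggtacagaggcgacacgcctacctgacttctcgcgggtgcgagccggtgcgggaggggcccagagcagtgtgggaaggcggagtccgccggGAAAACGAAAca
These matches describe letters only, and no binding was measured.

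Sildenafil was followed by higher levels of nearly all of these genes in 4T1, and of fewer of them in MC38 and LLC, and none fell in any line. In 4T1, 9 of 10 genes rose with an adjusted p under 0.05, where 33.5% of 13914 genes were called higher and 33.3% lower. In MC38, 4 of the 9 genes tested rose, where 19.5% of 13363 genes were called higher and 18.3% lower. In LLC, 3 of the 8 genes tested rose, where 15.1% of 13561 genes were called higher and 12.2% lower. All 3 sildenafil libraries lay above all 3 control libraries for 9 of the 10 genes in 4T1 (37.2% of all genes tested), for 6 in MC38 (25.7%), Zbp1 among them, and for 4 in LLC (25.2%). The median log2 fold change of the genes tested was 1.41 in 4T1, 0.10 in MC38 and 0.18 in LLC, beside medians over all genes of 0.002, 0.004 and -0.006. The genes not tested were Zbp1 in MC38 and Ifih1 and Zbp1 in LLC, which did not pass the filter on low counts. All adjusted p-values are from edgeR's quasi-likelihood test with Benjamini-Hochberg adjustment over all genes tested in that comparison. Fewer cells with a transcript and less of it per cell cannot be told apart in such bulk libraries.

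**Figure D1:**
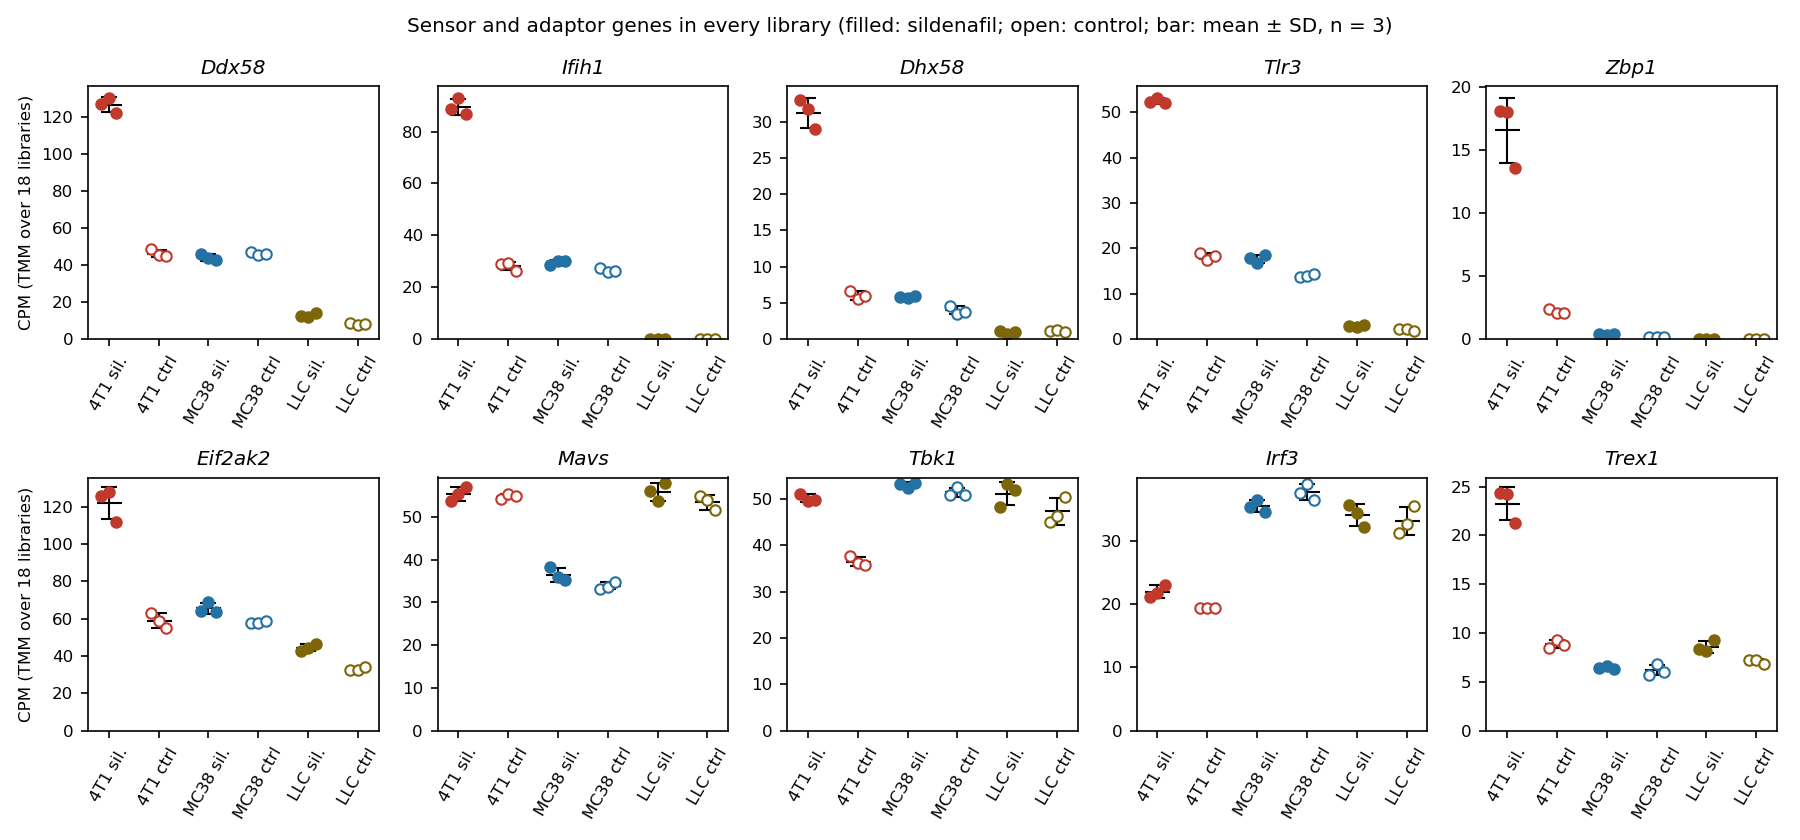
Level of each gene in every library, in CPM scaled by TMM over 18 libraries, with a separate linear axis from 0 for each gene; filled points are sildenafil libraries, open points control libraries, and bars the mean ± SD of 3. The sensors in the upper row stand far above control in 4T1, for example Ddx58 at 122 to 130 CPM against 44.9 to 48.4 CPM, while Mavs overlaps its controls there.

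Ddx58, which encodes RIG-I, lies on chromosome 4 (40203773 to 40239828, minus strand, mm10). It had 127, 130 and 122 CPM in 4T1 sildenafil libraries, against 48.4, 45.1 and 44.9 CPM in 4T1 control libraries. All treated libraries were above all controls, and the log2 fold change was 1.43 ± 0.0385 (SE, edgeR adjusted p = 4.89e-12). In MC38 the 2 groups overlapped, with 45.9, 43.9 and 42.4 CPM in sildenafil libraries and 47.1, 45.6 and 45.8 CPM in control libraries (log2 fold change -0.07 ± 0.0430, edgeR adjusted p = 0.224). LLC cells held far less of this transcript, with 12.5, 11.7 and 13.8 CPM in sildenafil libraries against 8.63, 7.49 and 7.96 CPM in control libraries. It rose there by 0.64 ± 0.0926 on the log2 scale (edgeR adjusted p = 0.00109), and by 0.63 without LLC control replicate 3.

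Ifih1, which encodes MDA5 (chromosome 2, 62595798 to 62646255, minus strand), was read in 4T1 and MC38 and not at all in LLC. In 4T1 it had 88.7, 92.9 and 86.7 CPM in sildenafil libraries, against 28.8, 29.3 and 26.4 CPM in control libraries, with no overlap (log2 fold change 1.65 ± 0.0437, edgeR adjusted p = 4.42e-12). In MC38 it had 28.7, 30.1 and 30.1 CPM in sildenafil libraries, against 27.4, 26 and 26.3 CPM in control libraries. That rise of 0.15 ± 0.0469 (edgeR adjusted p = 0.0170) was small, and the call was lost without MC38 control replicate 2 (adjusted p = 0.0648) or without MC38 sildenafil replicate 2 (adjusted p = 0.0683), and with DESeq2 (adjusted p = 0.0905). No read of Ifih1 was counted in any of the 6 LLC libraries, which allows up to 0.0332 CPM over the sildenafil libraries and 0.0346 CPM over the control libraries at 3 counts. These limits cover counting error only.

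Dhx58, which encodes LGP2 (chromosome 11, 100694884 to 100704271, minus strand), had a larger fold change in 4T1 than either sensor it modulates. It had 33.0, 31.8 and 29.0 CPM in 4T1 sildenafil libraries, against 6.61, 5.47 and 6.01 CPM in 4T1 control libraries (log2 fold change 2.36 ± 0.0711, edgeR adjusted p = 1.12e-11). In MC38 its level was 5.85, 5.64 and 5.97 CPM in sildenafil libraries, against 4.58, 3.52 and 3.77 CPM in control libraries, again without overlap (log2 fold change 0.55 ± 0.120, edgeR adjusted p = 0.00180). LLC libraries of both groups overlapped around 1 CPM, at 1.12, 0.686 and 1.02 CPM with sildenafil and 1.05, 1.28 and 0.996 CPM without it. The LLC difference of -0.25 ± 0.240 had an edgeR adjusted p of 0.469.

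Tlr3, the endosomal receptor (chromosome 8, 45395665 to 45411080, minus strand), rose in all 3 lines. In 4T1 it had 52.2, 53.2 and 52.1 CPM in sildenafil libraries, against 19.0, 17.5 and 18.4 CPM in control libraries (log2 fold change 1.51 ± 0.0424, edgeR adjusted p = 6.49e-12). In MC38 it had 17.9, 16.7 and 18.5 CPM against 13.6, 13.9 and 14.4 CPM in control libraries (0.34 ± 0.0612, edgeR adjusted p = 0.000387). The LLC level was low, at 2.99, 2.64 and 3.03 CPM in sildenafil libraries and 2.23, 2.13 and 1.70 CPM in control libraries. Its LLC log2 fold change was 0.50 ± 0.158 (edgeR adjusted p = 0.0414), a call that was lost when any 1 of the 6 libraries was left out (adjusted p from 0.0543 to 0.136) and with DESeq2 (adjusted p = 0.0925).

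Zbp1, which senses left-handed nucleic acids and can start necroptosis (chromosome 2, 173206612 to 173218923, minus strand), had the largest fold change of the 10 genes in 4T1. Its level there was 18.1, 18.0 and 13.6 CPM in sildenafil libraries, against 2.40, 2.11 and 2.04 CPM in control libraries (log2 fold change 2.91 ± 0.123, edgeR adjusted p = 1.92e-09). In MC38 it was counted 14, 8 and 14 times in sildenafil libraries and 4, 4 and 6 times in control libraries, a mean of 0.375 ± 0.0800 CPM against 0.158 ± 0.0397 CPM (SD, n = 3 each). The MC38 libraries did not overlap, but the counts were too low for the test. All 6 LLC libraries had 0 counts, with the same limits as for Ifih1.

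Eif2ak2 encodes PKR, which halts translation by phosphorylating eIF2alpha when it binds double-stranded RNA (chromosome 17, 78852564 to 78882573, minus strand). It had 126, 128 and 112 CPM in 4T1 sildenafil libraries, against 62.9, 58.5 and 54.9 CPM in 4T1 control libraries (log2 fold change 1.04 ± 0.0555, edgeR adjusted p = 1.43e-08). In LLC it had 42.9, 44.3 and 46.3 CPM in sildenafil libraries against 32.3, 32.4 and 33.9 CPM in control libraries, a rise of 0.42 ± 0.0508 (edgeR adjusted p = 0.000420). The MC38 rise was the smallest, with 63.9, 69.0 and 63.5 CPM in sildenafil libraries against 57.8, 57.9 and 58.8 CPM in control libraries (0.17 ± 0.0401, edgeR adjusted p = 0.00401). In none of the lines did the 2 groups overlap.

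The adaptor Mavs passed the test in no line. In 4T1 it had 53.6, 55.3 and 56.9 CPM in sildenafil libraries and 54.1, 55.4 and 54.8 CPM in control libraries, a log2 difference of -0.01 ± 0.0362 (edgeR adjusted p = 0.875). In MC38 it averaged 36.4 ± 1.54 CPM with sildenafil and 33.9 ± 0.845 CPM without it (log2 difference 0.10 ± 0.0467, edgeR adjusted p = 0.103), and in LLC 55.9 ± 2.10 CPM and 53.5 ± 1.73 CPM (SD, n = 3 each). The LLC log2 difference was 0.04 ± 0.0504 (edgeR adjusted p = 0.536). Mavs lies on the plus strand of chromosome 2 (131234063 to 131248025).

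Tbk1 and Irf3, the kinase and the factor it activates, rose in 4T1 by less than any sensor. Tbk1 (chromosome 10, 121546455 to 121586787, minus strand) had 51.1, 49.6 and 49.8 CPM in 4T1 sildenafil libraries, against 37.6, 36.1 and 35.7 CPM in 4T1 control libraries (log2 fold change 0.44 ± 0.0365, edgeR adjusted p = 1.55e-07). Irf3 (chromosome 7, 44997648 to 45002848, plus strand) had 21.1, 21.8 and 23.0 CPM, against 19.4 CPM in each of the 3 control libraries (0.16 ± 0.0493, edgeR adjusted p = 0.0129). Irf3 overlaps Bcl2l12 on the other strand, and without a stated strand setting their reads may be shared. The Irf3 counts were whole in all 18 libraries, and the sharing was not tested. Neither gene passed in MC38, where the log2 differences were 0.04 ± 0.0377 for Tbk1 and -0.09 ± 0.0457 for Irf3. In LLC they were 0.10 ± 0.0587 and 0.02 ± 0.0649. Without LLC control replicate 3, Tbk1 in LLC had a log2 fold change of 0.15 and passed the test (edgeR adjusted p = 0.0359).

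Trex1 encodes the exonuclease that removes DNA from the cytosol and so keeps DNA sensing in check (chromosome 9, 109057933 to 109059734, minus strand). It had 24.3, 24.2 and 21.3 CPM in 4T1 sildenafil libraries, against 8.43, 9.31 and 8.82 CPM in 4T1 control libraries (log2 fold change 1.38 ± 0.0646, edgeR adjusted p = 6.78e-10). The gene lies inside Atrip on the same strand, and its counts were not whole in any of the 18 libraries, so the split of reads between both genes is uncertain. With both genes' counts summed, an alternative chosen after seeing the data, the 4T1 log2 fold change was 0.335 (edgeR adjusted p = 3.27e-06). In MC38 Trex1 averaged 6.44 ± 0.132 CPM with sildenafil and 6.21 ± 0.563 CPM without it (SD, n = 3 each, log2 difference 0.05 ± 0.102, edgeR adjusted p = 0.740). In LLC all 3 sildenafil libraries (8.35, 8.12 and 9.25 CPM) lay above the controls (7.21, 7.23 and 6.81 CPM), but the difference of 0.26 ± 0.0907 had an edgeR adjusted p of 0.0594. In the fit of all 18 libraries it passed (0.28, adjusted p = 0.0141).

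**Figure D2:**
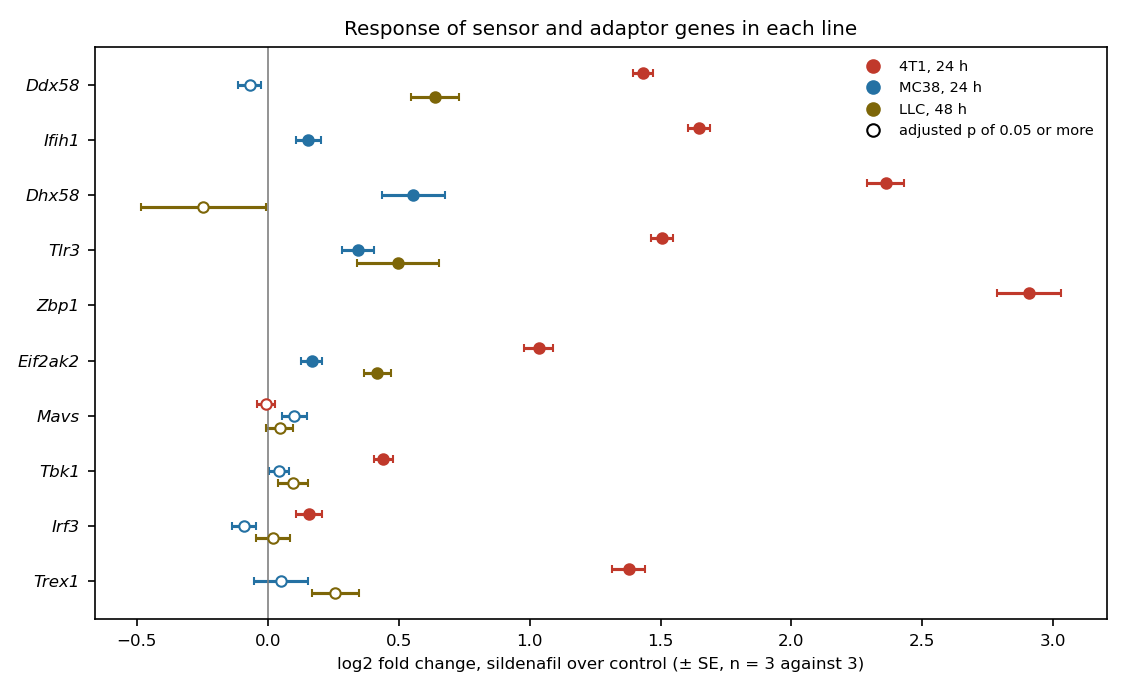
Log2 fold change of each gene, sildenafil over control, with bars of 1 SE (n = 3 against 3) and open points where the adjusted p was 0.05 or more; genes not tested have no point. In 4T1 the 6 sensors lie between 1.04 and 2.91, Tbk1 and Irf3 at 0.44 and 0.16 and Mavs at -0.01.

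With Gm26917 as a covariate, 7 of the 10 genes still passed in 4T1, and Tbk1 (0.31, edgeR adjusted p = 0.467) and Irf3 (0.01, adjusted p = 0.990) did not. Over all genes, 399 were called higher and 309 lower in that 4T1 fit, against 4658 and 4627 without the covariate, which there followed treatment almost fully (R2 = 0.969). In MC38, where R2 was 0.854, none of the 4 rises passed in that fit, in which 464 genes were called higher and 476 lower, against 2602 and 2445 without the covariate. The MC38 log2 fold changes in it were 0.40 for Tlr3, 0.25 for Eif2ak2, 0.135 for Ifih1 and 0.24 for Dhx58, against 0.34, 0.17, 0.15 and 0.55 without the covariate. In LLC (R2 = 0.463) 3 of the 8 genes tested passed in that fit, where 1310 genes were called higher and 942 lower.

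The response itself was compared between lines by interaction contrasts over all 18 libraries. The 4T1 response exceeded the MC38 response in 9 of the 10 genes, where 16.7% of 16040 genes were called higher, and Mavs was the exception (-0.09 ± 0.0609, edgeR adjusted p = 0.277). The differences ran from 0.26 ± 0.0746 for Irf3 to 1.82 ± 0.148 for Dhx58 on the log2 scale. That of Zbp1 (1.68 ± 0.458, edgeR adjusted p = 0.00738) rests on few MC38 counts and on 4T1 for passing the filter, and it was lost without MC38 control replicate 3 (adjusted p = 0.0662). The 4T1 response exceeded the LLC response in 6 of the 8 genes that could be compared, where 20.2% of genes were called higher, and not in Mavs (-0.05 ± 0.0593) or Irf3 (0.14 ± 0.0751, edgeR adjusted p = 0.161). Irf3 passed there with the 5 CPM filter (0.18, adjusted p = 0.0445) and with library totals alone (0.20, adjusted p = 0.0429). Between MC38 and LLC, Ddx58 (-0.72 ± 0.0869, edgeR adjusted p = 2.13e-06) and Eif2ak2 (-0.27 ± 0.0786, adjusted p = 0.0163) responded less in MC38 and Dhx58 responded more (0.78 ± 0.233, adjusted p = 0.0178). Of all genes, 12.6% were called lower and 9.68% higher in that contrast. The Dhx58 call was lost without LLC control replicate 2 (adjusted p = 0.0791), without LLC sildenafil replicate 2 (adjusted p = 0.0732) and with limma-voom (adjusted p = 0.0696). The Eif2ak2 call was lost without LLC sildenafil replicate 3 (adjusted p = 0.0534). The contrasts share libraries with each other and with the comparisons within lines.

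Control cells of the lines differed as well, and those of LLC stood apart in the levels of the sensors. Per kilobase of exon, Mavs was the most abundant of the 10 in 4T1 control cells at 16.4 ± 0.199 CPM per kb, followed by Eif2ak2 at 11.5 ± 0.783, Tbk1 at 9.33 ± 0.259, Trex1 at 7.72 ± 0.383, Ddx58 at 6.55 ± 0.279 and Irf3 at 5.64 ± 0.00738 (SD, n = 3 each). Tlr3 at 3.51 and Ifih1 at 3.45 CPM per kb could not be ordered, since their libraries overlapped, and Dhx58 at 1.84 and Zbp1 at 0.619 CPM per kb came last. In MC38 control cells Tbk1 led at 13.1 ± 0.235 CPM per kb, with Eif2ak2 at 11.4 and Irf3 at 10.9 overlapping next and Mavs at 10.1. Below them came Ddx58 at 6.55, Trex1 at 5.41, Ifih1 at 3.26, Tlr3 at 2.68, Dhx58 at 1.21 and Zbp1 at 0.0448 CPM per kb. In LLC control cells Mavs at 16.0, Tbk1 at 12.1, Irf3 at 9.62, Eif2ak2 at 6.43 and Trex1 at 6.17 CPM per kb stood well above Ddx58 at 1.14. Tlr3 at 0.388 and Dhx58 at 0.339 CPM per kb overlapped, and Ifih1 and Zbp1 were at 0 counts. The level of Trex1 carries the uncertainty of its shared reads.

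**Figure D3:**
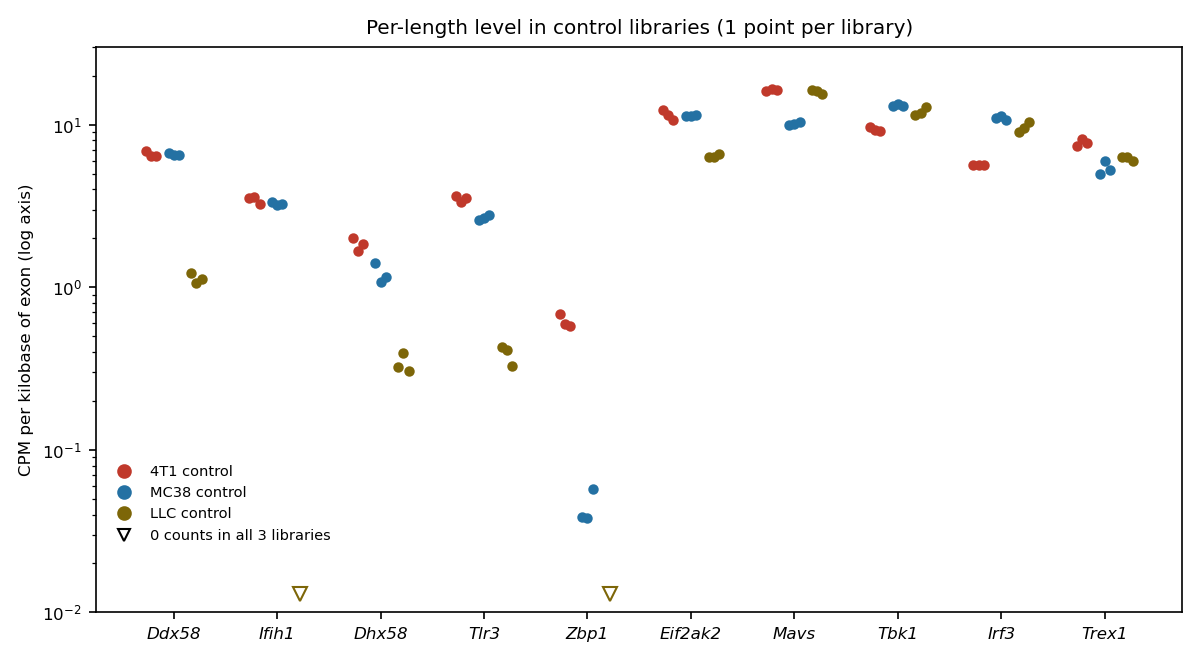
Level per kilobase of exon in each control library on a log axis, 1 point per library; open triangles mark genes with 0 counts in all 3 LLC control libraries and carry no level. The LLC points of Ddx58, Dhx58 and Tlr3 lie below those of the other lines, at means of 1.14, 0.339 and 0.388 CPM per kb, while the Mavs points of 4T1 and LLC lie together near 16 CPM per kb.

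Control groups were compared by contrasts over all 18 libraries. Ddx58 was higher in 4T1 than in LLC by 2.52 ± 0.0614 on the log2 scale (edgeR adjusted p = 9.76e-21), Tlr3 by 3.18 ± 0.0821 (adjusted p = 2.95e-20), Dhx58 by 2.44 ± 0.140 (adjusted p = 1.13e-13) and Eif2ak2 by 0.84 ± 0.0555 (adjusted p = 1.79e-12). Against the limit of 3 counts over the LLC control libraries, Ifih1 was at least 834-fold higher in 4T1 control cells and at least 728-fold higher in MC38 control cells. By the same limit Zbp1 was at least 64-fold higher in 4T1 control cells. Both genes entered this test only through the other lines. Irf3 was lower in 4T1 than in LLC (-0.77 ± 0.0537) and than in MC38 (-0.96 ± 0.0533), and so was Tbk1 (-0.37 ± 0.0453 and -0.49 ± 0.0451). Including Ifih1 and Zbp1, 7 genes were higher in 4T1 than in LLC and 2 lower, where 45.8% of 16040 genes were called higher and 41.3% lower. Mavs showed no called difference between these lines (0.03 ± 0.0421, edgeR adjusted p = 0.443), but under a filter of 5 CPM in 3 libraries it was lower in 4T1 (-0.11, adjusted p = 0.0156).

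Between 4T1 and MC38 control cells, the RNA sensors were closer. Ddx58 differed by 0.00 ± 0.0506, Eif2ak2 by 0.01 ± 0.0534 and Ifih1 by 0.08 ± 0.0524 on the log2 scale, none of which passed the test. Scaling by library totals alone moved the median of all genes by 0.10 in this contrast, and all 3 then passed as higher in 4T1, at 0.11, 0.12 and 0.19. Without 4T1 control replicate 3, Ifih1 also passed (0.13, edgeR adjusted p = 0.0303). Zbp1 (3.76 ± 0.260), Mavs (0.69 ± 0.0434), Dhx58 (0.61 ± 0.110), Trex1 (0.51 ± 0.0821) and Tlr3 (0.39 ± 0.0598) were higher in 4T1, so that 5 genes were higher and 2 lower, beside 42.7% and 42.1% of all genes. With the counts of Trex1 and Atrip summed, the Trex1 difference between 4T1 and MC38 was 0.10 (edgeR adjusted p = 0.0387). MC38 control cells exceeded LLC control cells in 8 of the 10 genes, where 39.0% of all genes were called higher and 38.0% lower. These 8 include Ifih1, at 0 counts in LLC, and Zbp1, with 14 counts in MC38 control libraries against 0 in LLC, which entered the contrast through 4T1. Trex1 differed by -0.19 ± 0.0881 (edgeR adjusted p = 0.0557), and by 0.07 (adjusted p = 0.147) with Atrip counts added. Ddx58 was higher there by 2.52 ± 0.0625, Tlr3 by 2.79 ± 0.0869, Dhx58 by 1.84 ± 0.155 and Eif2ak2 by 0.82 ± 0.0565, and Mavs was lower by -0.66 ± 0.0443. Also among the 8, the call of Tbk1 (0.12 ± 0.0456, edgeR adjusted p = 0.0206) was lost in 9 of 16 alternatives. That of Irf3 (0.18 ± 0.0530, edgeR adjusted p = 0.00318) was lost in 3 of 16.

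Beside the counts for the further lists of the pathway stand the shares over all genes tested, 33.5% higher and 33.3% lower in 4T1, 19.5% and 18.3% in MC38, and 15.1% and 12.2% in LLC. Of 13 partners of the RNA sensors in 4T1, 6 rose and 4 fell, near the shares over all genes, with a median log2 fold change of 0.13. Trim25, a ubiquitin ligase that acts on RIG-I, rose to 226 ± 4.6 CPM in 4T1 sildenafil cells, against 114 ± 4.70 CPM in 4T1 control cells (SD, n = 3 each). Rnf135, a second such ligase, rose by 0.66 ± 0.0695 on the log2 scale, and Prkra, an activator of PKR, by 0.59 ± 0.0581. The helicases Dhx9 and Dhx15 fell by 0.58 and 0.47. In MC38, 2 of 13 rose and 3 fell, among them Trim25 (-0.12 ± 0.0398, edgeR adjusted p = 0.0316), and in LLC 1 rose and 2 fell, counts that are also near the shares over all genes.

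Most tested genes of cytosolic DNA sensing rose in 4T1. In 4T1, 11 of the 14 tested rose and 2 fell (median 0.86, beside 33.5% of all genes higher), in MC38 7 of 13 rose and none fell (median 0.14, beside 19.5%), and in LLC 3 of 10 rose and 1 fell (median 0.13, beside 15.1%). Cgas, the enzyme that makes cGAMP on DNA, was among those that fell in 4T1, with 21.6 ± 0.851 CPM in sildenafil cells against 33.5 ± 0.265 CPM in control cells (log2 fold change -0.65 ± 0.0430, edgeR adjusted p = 1.69e-08). Most of the genes that rose belong to the interferon-inducible Ifi200 family, including Ifi205 (2.74 ± 0.266) and Ifi207 (2.25 ± 0.195) in 4T1 and Ifi213 (1.01 ± 0.106) in MC38. Their sequences are close copies of each other, so the division of reads among them is uncertain. In LLC, Cgas was near 0, at 0.0443 CPM with sildenafil and 0.0245 CPM without it, a value named after it was seen.

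Around TBK1 and IRF3, 10 of 18 genes of the kinase and adaptor complex rose in 4T1 and 3 fell (median 0.32). In MC38 5 of 18 rose and in LLC 7, with 1 fall in each line. Irf7, the interferon-induced relative of Irf3, rose in all 3 lines, by 3.00 ± 0.191 in 4T1, 0.76 ± 0.198 in MC38 and 1.02 ± 0.193 in LLC on the log2 scale. Its level was 79.8 ± 14.6 CPM in 4T1 sildenafil cells, against 9.88 ± 1.15 CPM in 4T1 control cells, and under 3 CPM in each group of the other lines. Optn, an adaptor that binds TBK1, also rose in all 3 lines (0.94 ± 0.0370, 0.56 ± 0.0583 and 0.51 ± 0.102). Traf3, which links MAVS to TBK1, fell in 4T1 (-0.29 ± 0.0312) and MC38 (-0.25 ± 0.0380).

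Downstream of ZBP1, 3 of 4 tested genes rose in 4T1, led by Casp1 (2.36 ± 0.133), and 1 of 4 in MC38 and 1 of 5 in LLC. Ripk3, the kinase that joins ZBP1 to necroptosis, averaged 0.0120 CPM in sildenafil and 0.0235 CPM in control cells of 4T1, and 2.51 CPM and 3.19 CPM in LLC, values named after they were seen. Of the nucleases and RNA-editing genes, 6 of 9 rose and 2 fell in 4T1, 3 rose and 2 fell in MC38, and none rose and 1 fell in LLC. Samhd1, which degrades dNTPs, fell in MC38 (-0.38 ± 0.0424) and LLC (-0.29 ± 0.0924). Of the other eIF2alpha kinases, Eif2ak3 (PERK, the kinase of the endoplasmic reticulum) rose in all 3 lines, by 0.80 ± 0.0585, 0.53 ± 0.0442 and 0.22 ± 0.0538. Eif2ak1 fell in 4T1 (-0.15 ± 0.0438) and rose in LLC (0.43 ± 0.0712). Unc93b1, which escorts TLR3 to endosomes, likewise rose in all 3, by 1.14 ± 0.0921, 0.44 ± 0.0786 and 0.42 ± 0.0714. The receptors Tlr7, Tlr8, Tlr9 and Tlr13 were too low to test in 4T1 and MC38.

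Interferon genes themselves were at or near 0 counts in all groups, with Ifnb1 at 0.0522 CPM in 4T1 sildenafil and 0.0279 CPM in 4T1 control cells and 4 Ifna genes at 0 throughout. Of their first targets, all 5 rose in 4T1 (median 2.03) and in MC38 (median 0.71). Rsad2, an antiviral enzyme, rose to 49.6 ± 5.61 CPM in 4T1 sildenafil cells against 6.23 ± 0.356 CPM in 4T1 control cells (log2 fold change 2.98 ± 0.0853). In MC38 it had 18.8 ± 0.899 CPM against 10.5 ± 0.128 CPM (0.83 ± 0.0627). In LLC Isg15 alone was high enough to test, and it rose by 0.85 ± 0.221 (edgeR adjusted p = 0.0184).

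**Figure D4:**
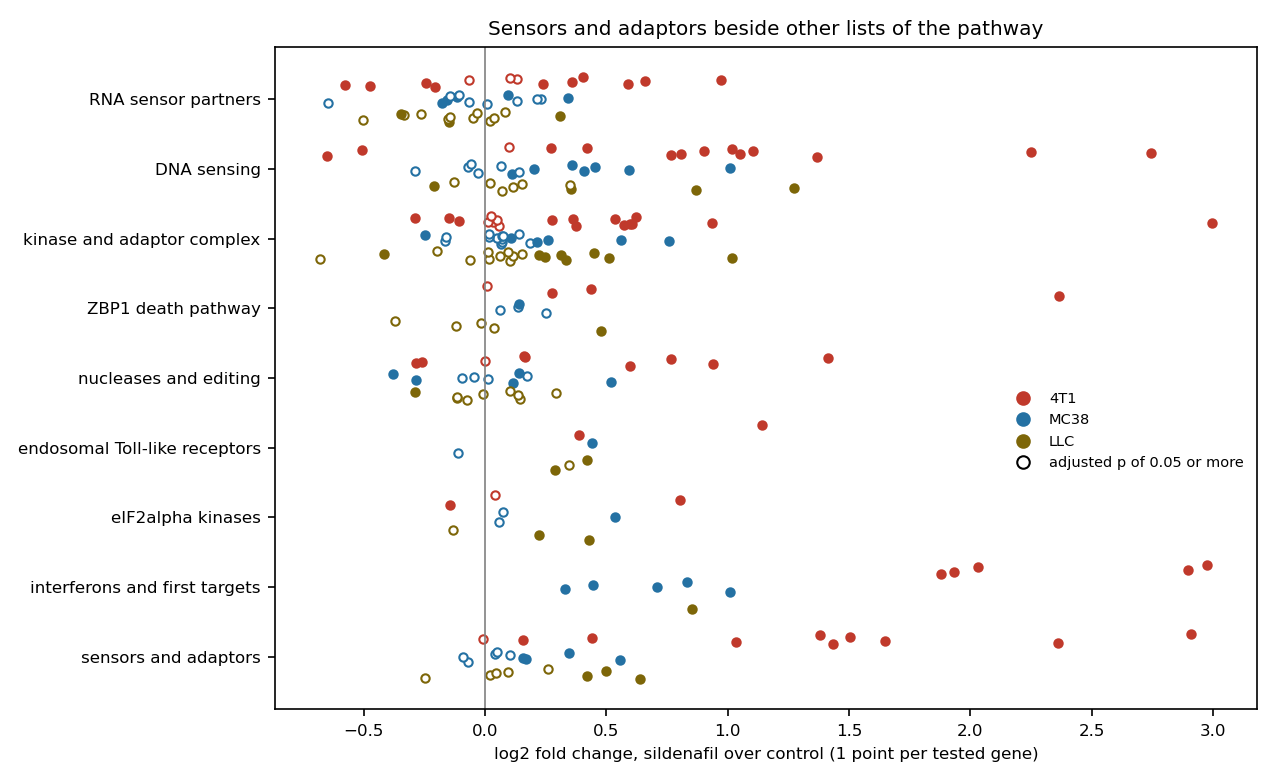
Log2 fold change of every tested gene in 8 further lists of the pathway and in the 10 sensors and adaptors (lowest row), sildenafil over control, with 1 point per gene and open points where the adjusted p was 0.05 or more. The 4T1 points of the first interferon targets lie between 1.88 and 2.98, and those of the RNA sensor partners between -0.58 and 0.97.

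By Pearson correlation of log2(CPM + 1) over the 18 libraries, each gene had a nearest neighbour with a correlation of 0.974 or more. The 18 libraries fall into 3 lines, so these values mostly describe levels of lines. Tlr3 lay nearest to Psmb9 (0.997), Parp14 (0.996) and Oas1a (0.995), and Ddx58 to Zbtb42, Parp14 and Psmb9 (0.994, 0.994 and 0.993). Dhx58 lay nearest to Oas3 (0.996), Zbp1 to H2-T24 (0.993) and Irf7 (0.992), and Eif2ak2 to Parp9 (0.991). Mavs (Ust, 0.988), Tbk1 (Rnh1, 0.983), Irf3 (Eva1b, 0.990) and Trex1 (Sirt2, 0.974) had the nearest genes given here, and Ifih1 lay nearest to Ikbkb (0.996). None of the 3 nearest genes of any of the 10 was another of them.

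Both genes with 0 counts in LLC lie on chromosome 2, Ifih1 from position 62595798 and Zbp1 from position 173206612. Mavs lies between them, from position 131234063, and averaged 53.5 CPM in LLC control cells. The genes beside Ifih1 and Zbp1 were looked at after these zeros had been seen. Gca starts 18.0 kb from the start of Ifih1 and also had 0 counts in all 6 LLC libraries, at 4.87 CPM in 4T1 control and 0.0793 CPM in MC38 control cells. Pmepa1, a membrane adaptor that limits TGF-beta signalling, starts 57.6 kb from Zbp1 and had 0 counts in all 6 LLC libraries, against 54.1 CPM in 4T1 control and 21 CPM in MC38 control cells. Some genes further out were counted in LLC, with 26017 counts for Psmd14 at -934.6 kb from Ifih1, and 3642 for Rbm38 at -198.4 kb and 14337 for Rab22a at 440.8 kb from Zbp1. Others had 0 counts there as well, among them Bmp7 at -278.6 kb from Zbp1, which had 16.8 CPM in 4T1 control cells and 0 in MC38 control cells. Around Ifih1, Dpp4, Gcg, Fap and Kcnh7 were at 0 counts in LLC and below 0.1 CPM in the control cells of the other lines. Of 6441 protein-coding genes with at least 20 CPM in the control cells of both other lines, 22 (0.342%) had 0 counts in all 6 LLC libraries, Ifih1 and Pmepa1 among them. The same count was 6 of 6251 (0.0960%) for 4T1 and 8 of 6256 (0.128%) for MC38.

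**Figure D5:**
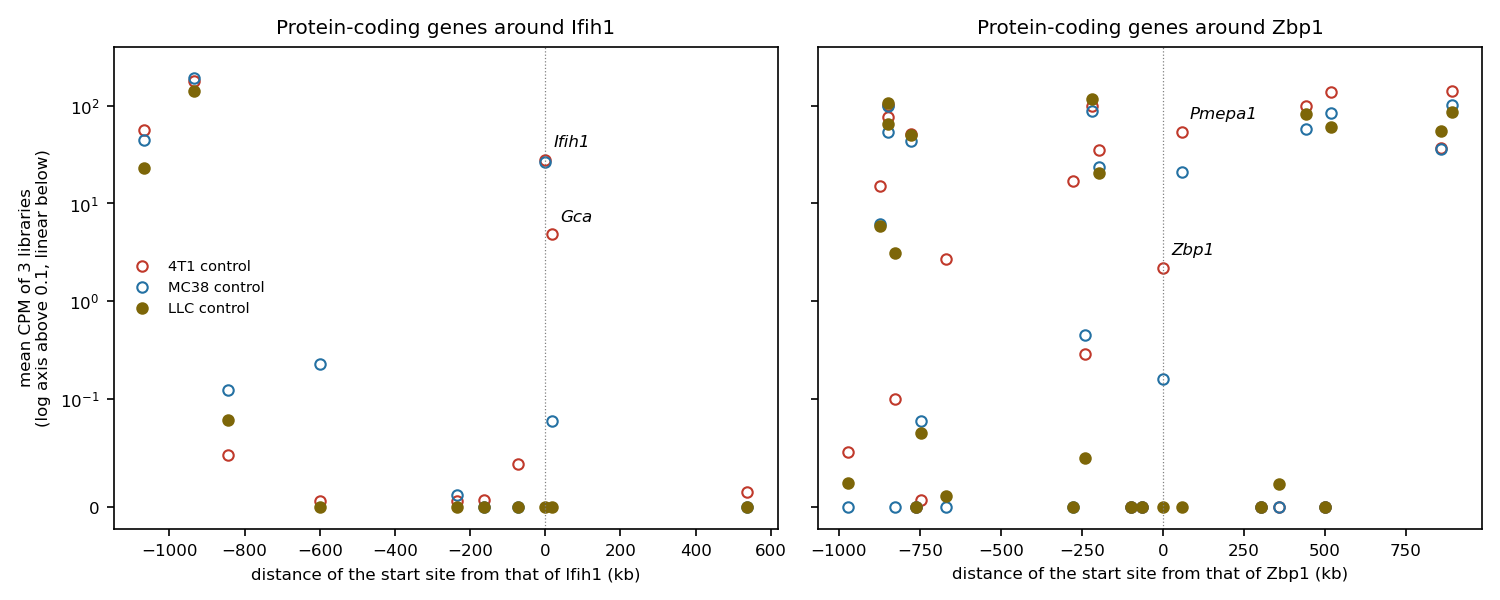
Mean CPM of protein-coding genes in control libraries of each line against the distance of their start sites from that of Ifih1 (left) and Zbp1 (right), on an axis that is logarithmic above 0.1 CPM and linear below. LLC points of Ifih1, Gca, Zbp1 and Pmepa1 lie at 0, where LLC points cover those of other lines at 0.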

How the data were processed

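RNA of 18 libraries was measured, 3 per group, with groups taken from the labels. The authors deposited a gene table of expected counts. The tools named in the submitters' processing notes are RSEM 1.3.1, STAR 2.7.0f, cutadapt 1.18 and bcl2fastq 2.17, with build mm10. Neither the annotation release nor the strand setting is stated there, and overlapping genes on opposite strands may share reads. All 55450 identifiers matched GENCODE M21, used for positions and exon lengths, and 217 symbols stood on more than 1 row. No library duplicated another.

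Expected counts were rounded and tested with edgeR 4.0.16 in R 4.3.3 (filterByExpr, TMM factors, quasi-likelihood F test with robust estimation), within each line on 6 libraries, and between lines on 18 libraries with 1 coefficient per group. P-values were adjusted by Benjamini-Hochberg over all genes tested, with a threshold of 0.05, and the SE is the log2 fold change divided by the square root of F. Scripts were tested on simulated data. Printed CPM were scaled by TMM over 18 libraries and folds come from the fits, so both can differ slightly. Floors are 3 counts.

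The 10 genes and all lists were chosen with earlier results of these data known. Beyond the 10, the rule allowed up to 3 genes per list, line and direction with the largest changes (past the threshold, with a mean of 1 CPM or more). Of the list genes named outside this rule, Ripk3 and the LLC value of Cgas are marked in the text. Ifnb1, Tlr7, Tlr8, Tlr9 and Tlr13 were also named outside it. Alternatives included other scalings and filters, DESeq2 1.42.0, limma-voom (limma 3.58.1), a Gm26917 covariate, a replicate block and leaving out each library. Zbp1 in MC38 and Ifih1 and Zbp1 in LLC had too few counts to be tested within the line.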

Additional observations from a re-analysis of the deposited data

Results flagged for a closer look

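Response differences of 9 genes in 1 or more of 3 contrasts passed the interaction test with edgeR's quasi-likelihood fit over all 18 libraries, each given as the log2 fold change of the first line minus that of the second. Of all 16040 genes, 34.6% passed in either direction for 4T1 minus MC38. The share was 42.0% for 4T1 minus LLC and 22.3% for MC38 minus LLC. The 4T1 response exceeded that of MC38 by 1.82 for Dhx58, 1.68 for Zbp1, 1.52 for Ddx58, 1.51 for Ifih1, 1.34 for Trex1, 1.176 for Tlr3, 0.88 for Eif2ak2, 0.41 for Tbk1 and 0.26 for Irf3. It exceeded that of LLC by 2.60 for Dhx58, 1.12 for Trex1, 1.00 for Tlr3, 0.79 for Ddx58, 0.62 for Eif2ak2 and 0.35 for Tbk1. The MC38 response minus that of LLC was -0.72 for Ddx58, 0.78 for Dhx58 and -0.27 for Eif2ak2. LLC was treated for 48 hours and the other lines for 24, so line and duration cannot be told apart in the last 2 sets. Zbp1 passed the filter through 4T1, and its call was lost without MC38 control replicate 3 (edgeR adjusted p = 0.0662). The calls of Dhx58 and Eif2ak2 between MC38 and LLC were also lost in some alternatives. With the counts of Trex1 and Atrip summed, an alternative chosen after seeing the data, the Trex1 differences were 0.27 against MC38 and 0.20 against LLC (edgeR adjusted p = 0.000982 and 0.00923).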

How the results depend on the processing

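Within lines, the number of the 10 genes called moved by over 1.5 times in 1 alternative, the Gm26917 covariate, which left 0 called higher in MC38 (4 otherwise), although Tlr3 (0.40), Eif2ak2 (0.25) and Ifih1 (0.135) had log2 fold changes close to or above those without it. The MC38 log2 fold change of Dhx58 shrank to 0.24, against 0.55 without the covariate. That covariate also lowered the calls over all genes to 399 higher and 309 lower in 4T1, 464 and 476 in MC38, and 1310 and 942 in LLC. Fitted with all 18 libraries, LLC had 3097 genes called higher. Leaving out 1 library moved the LLC calls between 1127 and 3079 higher and between 714 and 2915 lower, the upper ends without control replicate 3. In the controls, library totals alone gave 8 genes higher in 4T1 than in MC38 (5 otherwise). In MC38 against LLC, 2 genes were lower (1 otherwise) with the 5 CPM filter, DESeq2, library totals, protein-coding genes only and RLE factors, since Trex1 was added (adjusted p from 0.00405 to 0.0259), and 1 or 2 when 1 library was left out. There, Tbk1 was lost in 9 alternatives (adjusted p from 0.0626 to 0.676) and Irf3 in 3 (0.0534 to 0.149). Mavs reversed between 4T1 and LLC controls with the 5 CPM filter (-0.11, against 0.03). In the response of MC38 minus LLC, limma-voom called 0 genes higher (1 otherwise), and leaving out 1 library gave 0 to 1 higher and 1 to 2 lower. The causes were not tested.

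Deviations of same-numbered libraries of the 2 groups had correlations of -0.00661, 0.242 and -0.0207 in 4T1. In MC38 the correlations were 0.0908, 0.119 and 0.362, and in LLC 0.411, -0.183 and 0.264. These mixed values do not settle whether replicate numbers pair the libraries. With a replicate block, 4T1 had 4587 genes called higher and 4503 lower, MC38 2928 and 2939, and LLC 2114 and 1964. Of the sensors and adaptors tested, 9 of 10 were called higher in 4T1, 4 of 9 in MC38 and 3 of 8 in LLC. Not every library correlated best with its own number.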

Other observations

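With a lower limit of 1 CPM in the control cells of both other lines, 117 of 10159 protein-coding genes (1.15%) had 0 counts in all 6 LLC libraries, 52 of 10128 (0.513%) in all 6 4T1 libraries and 48 of 9965 (0.482%) in all 6 MC38 libraries. At the limit of 20 CPM, the LLC genes at 0 also held Tmsb4x, which encodes the actin-binding protein thymosin beta 4, and Cd81, which encodes a tetraspanin. The counts were made after the zeros of Ifih1 and Zbp1 had been seen.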
